A study of Mus musculus with 4 samples.

Results

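The cells described here were suprabasal keratinocytes of the mouse digit that carried high levels of Krt9. They were chosen by measured values in 4 single-cell libraries, namely their counts of unique molecular identifiers (UMIs), which stand for captured RNA molecules. A cell was taken when Krt1 plus Krt10 made up at least 2% of its UMIs, Krt9 made up at least 0.5%, and fewer than 4 of 7 genes of the granular layer (Slurp1, Wfdc21, Wfdc12, Hrnr, Hal, Lypd5 and Cnfn) were detected. This gave 116 of 93602 cells that passed the limits on cell quality, and they are called Krt9 cells below. The 10 genes of the rule chose the cells, so their levels are given as a description with no test.

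The libraries came from P3 digits, the distal digit segments, of female C57BL/6 mice aged 6 to 8 weeks. Hindlimb digits 2 to 4 of 10 mice were cut at the proximal second phalanx and pooled for each library, so the suspensions also held tissue of that phalanx, and there was 1 library per condition. In the diet experiment, mice received SAR131675, an inhibitor of the lymphatic growth factor receptor VEGFR3, at 30 mg per kg of chow for 8 days according to the series description, or a control diet. The methods of the study start this chow before amputation and keep it up throughout, so the total time on it may have been longer, and the days since amputation are not given here. In the surgical experiment, lymph node removal (LNR) was done on one limb, and the opposite limb of the same mice served as sham. The methods of the study describe amputation of the P3 tip on digits 2 and 4, so the pools may also hold tissue of digit 3, which is not named as amputated. The labels give every library its own batch, so condition and batch cannot be told apart.

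Stratified epidermis is built from basal cells that express Krt5 and Krt14 and from suprabasal cells that switch to Krt1 and Krt10. The thick, hairless skin of the palm and sole adds Krt9, a keratin whose mutation causes epidermolytic palmoplantar keratoderma, a thickening of this skin. During limb development the ventral ectoderm expresses the transcription factor En1, which is needed for ventral limb identity. The files hold no positions of cells, so a volar origin rests on Krt9 being known from this skin.

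After filtering, 29076 cells of the SAR131675 library, 24030 of the control diet library, 19827 of the LNR library and 20669 of the sham library remained. Median UMIs per cell were 11316 and 10712 in the diet experiment against 5725 and 5851 in the surgical one. Within an experiment, 210 barcodes were shared by SAR131675 and control diet, of which 1 belonged to a Krt9 cell, and 101 were shared by LNR and sham.

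Krt9 cells numbered 68 in SAR131675, 34 in control diet, 5 in LNR and 9 in sham. They were 0.234% of kept cells in SAR131675 (95% exact binomial interval 0.182 to 0.296, for counting error only) and 0.141% in control diet (0.098 to 0.198). In LNR they were 0.0252% (0.00819 to 0.0588) and in sham 0.0435% (0.0199 to 0.0826). The diet libraries thus held most of the cells, and the surgical libraries held 14 between them. As a share of cells with Krt1 plus Krt10 at or above 2% of UMIs, the values were 1.67%, 0.796%, 0.496% and 0.749% in the same order. The SAR131675 share of kept cells was above that of control diet, with a log2 ratio of 0.73 and a counting interval of 0.11 to 1.36. Its interval took in 0 when the Krt9 limit was set at 1% (log2 ratio 0.06), when fewer than 2 granular genes were allowed (0.54) or when every cell was thinned to 3000 UMIs (0.49). For LNR against sham the log2 ratio was -0.79, with an interval from -2.71 to 0.94, and it was 0.06 after thinning. With 1 library per condition neither ratio has a replicate check.

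**Figure D1:**
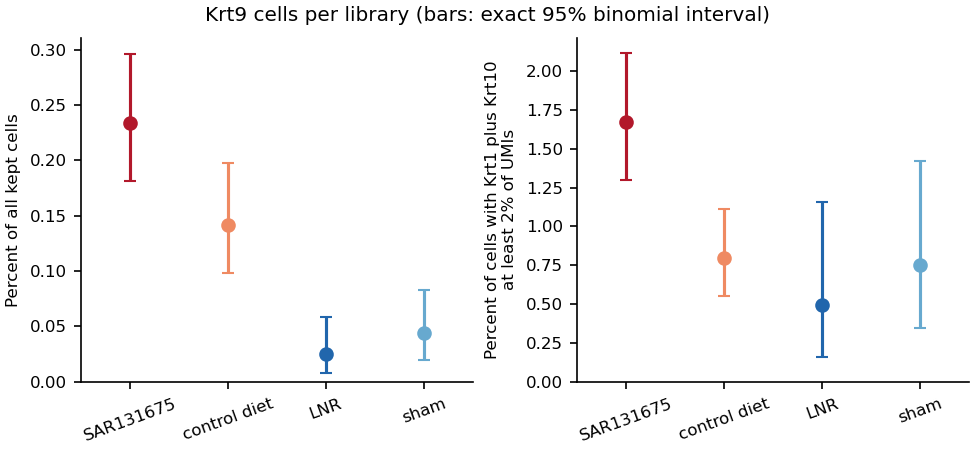
Share of Krt9 cells in each library, as percent of all kept cells (left axis) and as percent of cells with Krt1 plus Krt10 at least 2% of UMIs (right axis); points are libraries and bars are exact 95% binomial intervals. The SAR131675 point, at 0.234% of kept cells, lies highest in both plots, and the wide bars of LNR and sham reflect 5 and 9 cells.

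Krt9 itself formed a continuous range within the cells chosen. The median share of Krt9 among a Krt9 cell's UMIs was 0.853% in SAR131675, 1.16% in control diet, 0.787% in LNR and 1.39% in sham, and the highest share in any library was 3.39%. The lowest shares inside the limit were 0.512%, 0.520%, 0.662% and 0.651%, and the highest shares outside it, among otherwise equal cells, were 0.499%, 0.469%, 0.401% and 0.418%. Of the 7245 other suprabasal cells below the granular limit, called Krt9-low cells, 5.2% in SAR131675, 2.35% in control diet, 1.46% in LNR and 0.932% in sham had any Krt9 UMI. Between 0.25% and the limit lay 20, 10, 1 and 3 Krt9-low cells in the same order.

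The Krt9 cells differed from the Krt9-low cells in which of the paired keratins dominated. Krt1, the type II keratin of suprabasal cells, made up 76.2%, 76.7%, 76.0% and 73.8% of the summed Krt1 and Krt10 UMIs of the Krt9 cells in SAR131675, control diet, LNR and sham. In Krt9-low cells it made up 25.3%, 22.8%, 30.1% and 30.9%. Krt1 counts exceeded Krt10 counts in 67 of 68, 32 of 34, 5 of 5 and 9 of 9 Krt9 cells. The rule used only the sum of the pair, but both genes belong to it, and the values are a description. Krt10, the type I partner, was lower in Krt9 cells, at 8103, 8349, 7043 and 10009 CPM (counts per 1000000 UMIs of a class) against 24149, 25211, 19959 and 20533 in Krt9-low cells. The 27 cells with Krt9 that also carried 4 or more granular genes kept the same balance, with Krt1 at 68.9%, 78.3%, 70.0% and 69.9% of the sum.

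The Krt9-low cells were themselves mixed in this respect. Only 10.1%, 12.6%, 22.7% and 18.4% of them had more Krt1 than Krt10 UMIs, and the lowest 25% had Krt1 at less than 1% of the sum. The comparison with Krt9-low cells was therefore repeated against those Krt9-low cells alone that had more Krt1 than Krt10, a setting chosen after seeing the data. These are called Krt1-rich Krt9-low cells, and there were 298, 371, 140 and 138 of them in SAR131675, control diet, LNR and sham.

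To ask which other genes distinguished the Krt9 cells, UMIs were summed per library and class, and the classes were compared within libraries by edgeR's quasi-likelihood test with the library as a block. The 4 libraries were the replicates. Since LNR and sham came from the same mice, they were not fully independent. The p-values use a variance that edgeR estimates over many genes together. They therefore do not measure each gene's own spread between these libraries. Each SE below is the absolute log2 fold change divided by the square root of the test's F statistic, so it shares this limit. A gene was called when its Benjamini-Hochberg adjusted p over all genes tested was below 0.05 and it differed at least 1.5-fold. Of 10306 genes tested, 548 were called higher (5.32%) and 777 lower (7.54%) in Krt9 cells. These shares are the scale for every list count below that is against all Krt9-low cells. Counts of lower calls, in all and by list, are descriptions, since a gene could pass the low-count filter through the Krt9-low cells alone. Of all 1325 called genes, 880 had the same direction in 4 of 4 libraries. Against Krt1-rich Krt9-low cells, 373 of 8232 genes were called higher (4.53%) and 545 lower (6.62%), and 712 of the calls were shared with the first comparison. Of the 548 genes called higher, 452 were found in 20 or more Krt9 cells and 8 had over 50% of their UMIs in 1 cell. Cell types other than keratinocytes were looked for with marker lists. At least 2 genes of a list were seen in 32.4%, 38.2%, 0% and 22.2% of the Krt9 cells of SAR131675, control diet, LNR and sham, and in 32.8%, 29.6%, 22.9% and 20.2% of Krt9-low cells. Of the 116 Krt9 cells, 25 met this for fibroblast markers and 13 for erythroid markers; their part in the results was not tested beyond a fit without such cells, which called 1014 genes.

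Hhip had the largest log2 difference among genes called higher with at least 200 UMIs and the same direction in every library. It encodes a membrane protein that binds hedgehog ligands and is itself a target of hedgehog signaling. Its level in Krt9 cells was 378 CPM in SAR131675, 476 in control diet, 31.1 in LNR and 64.9 in sham, against 3.46, 2.05, 0.425 and 0.893 CPM in Krt9-low cells. Every Krt9 value lay above every Krt9-low value. Within the Krt9 cells the diet libraries lay above the surgical ones, which held 3 and 8 Hhip UMIs, and within the Krt9-low cells they did so too. The experiments also differed in depth and processing software, and the cause of this gap was not tested. The log2 fold change was 7.20 (SE 0.21, edgeR adjusted p = 6.2e-245), and it was 5.10 against Krt1-rich Krt9-low cells. Hhip UMIs were seen in 80 of 116 Krt9 cells, spread as 50, 25, 2 and 3 over the libraries. After thinning every cell to 3000 UMIs, 51.9% of Krt9 cells and 0.449% of Krt9-low cells had an Hhip UMI.

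En1, the ventral ectoderm factor, was also higher in Krt9 cells of all libraries. Its levels were 222, 189, 93.2 and 179 CPM in Krt9 cells of SAR131675, control diet, LNR and sham, against 39.2, 41.9, 30.3 and 30.2 CPM in Krt9-low cells. The groups did not overlap, and the log2 fold change was 2.30 (SE 0.16, edgeR adjusted p = 5.7e-44) against all Krt9-low cells and 2.04 against the Krt1-rich ones. En1 UMIs were found in 100 of 116 Krt9 cells. The remaining cells, with Krt1 plus Krt10 and Krt5 plus Krt14 both under 2% of UMIs, held En1 at 24.7 ± 5.67 CPM (SD, n = 4 libraries). They may include keratinocytes, since their summed basal layer genes stood at 7194 to 9946 CPM over the libraries. The part of free RNA in the Krt9-low level of En1 was not tested. Of 24 genes listed for limb position, 11 passed the low-count filter. Of these, 3 were called higher and 0 lower, against 5.32% and 7.54% of all genes tested. The others called were Dlx3 and Msx2, homeobox genes of limb ectoderm and skin appendages, at log2 fold changes of 1.13 and 1.54. Msx2 rested on 13 UMIs in 10 Krt9 cells. Hoxa10 gave 1.13 and was not called (adjusted p = 0.092).

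The other genes with the largest positive differences included secreted and membrane proteins of several signaling pathways. Wnt5a, a ligand of noncanonical Wnt signaling, was at 71.9, 78.1, 31.1 and 48.7 CPM in Krt9 cells of SAR131675, control diet, LNR and sham, against 4.52, 3.9, 4.67 and 7.27 CPM in Krt9-low cells. The log2 fold change was 3.88 (SE 0.25, adjusted p = 2.9e-51) and 3.16 against Krt1-rich cells. Igfbp5, which binds insulin-like growth factors, was at 285, 239, 186 and 114 CPM against 14.8, 14.5, 39.4 and 78.3, a log2 fold change of 3.23 (SE 0.16). The Krt9 cell levels lay above those of Krt9-low cells in each library, with the smallest gap in sham, and the SE does not show this unevenness. Against Krt1-rich cells the log2 fold change of Igfbp5 was 3.19, but in sham those cells held 103 CPM, close to the Krt9 cells. Bambi, a decoy receptor that dampens TGF-β and BMP signaling, had a log2 fold change of 3.43 (SE 0.30). The transmembrane serine protease gene Tmprss11e gave 3.96, the phosphodiesterase gene Mpped2 3.44, the sorting nexin gene Snx10 3.24 and the amino acid transporter gene Slc7a8 3.21. The uncharacterized transcript 4930438A08Rik was at 330, 284, 197 and 260 CPM in Krt9 cells against 18.7, 25.4, 16.1 and 9.31 in Krt9-low cells. It was found in 103 Krt9 cells, and its log2 fold change was 3.93 (SE 0.16). Wfdc18, a small secreted whey acidic protein family member, gave 3.55, but 22.4% of its UMIs came from 1 cell, and Krt9-low granular cells held more of it (824 ± 443 CPM) than Krt9 cells (168 ± 129 CPM, SD, n = 4 libraries).

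**Figure D2:**
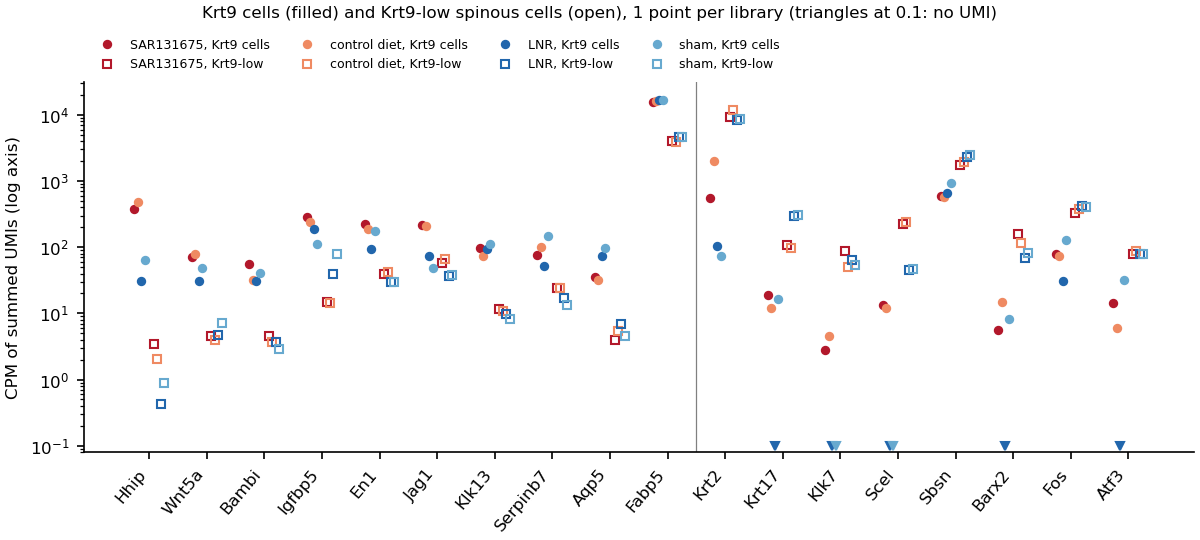
Levels of 18 genes in Krt9 cells (filled circles) and Krt9-low spinous cells (open squares) in CPM of summed UMIs on a log axis, 1 point per library and class, with triangles at 0.1 for no UMI. Filled points lie above open points of the same library for the genes left of the line (Hhip to Fabp5) and below them for the genes right of it (Krt2 to Atf3), where the gap of Krt2 was absent against Krt1-rich Krt9-low cells.

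The genes with the largest negative differences had no UMI in any Krt9 cell. With a floor of 3 UMIs over all Krt9 cells, Susd2, which encodes a membrane protein with a sushi domain, was at least 23.4-fold lower than in Krt9-low cells, where it stood at 33.6, 29.9, 66.1 and 67 CPM. Skint10 and Skint8 were at least 21.6-fold and 12.3-fold lower. The corresponding bounds were 10.6 for Npl, a sialic acid lyase gene, 10.4 for the cytochrome P450 gene Cyp2b10, 9.83 for Slitrk6, 8.54 for the monoamine oxidase gene Maob, 6.36 for the alcohol dehydrogenase gene Adh6b, 6.34 for the inositol phosphatase gene Inpp4b and 5.64 for Ache, which encodes acetylcholinesterase. The Skint genes encode epidermal proteins of the immunoglobulin superfamily, of which Skint1 is needed for the selection of the resident gamma delta T cells of mouse epidermis. Looked at as a family after their values were seen, 11 Skint genes were in the files and 9 passed the low-count filter, which they could do through the Krt9-low cells alone, so no count of calls is given. The Krt9 cells held 20 Skint UMIs in all, against 1398 expected from the levels of Krt9-low cells in the same libraries. These genes are close paralogs, so the split of UMIs among them is uncertain.

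Outside the rule's own genes, keratins differed in both directions. Of 8 suprabasal keratins, 3 were rule genes, and of 4 tested 0 were called higher and 2 lower. Krt2, a late suprabasal keratin, was at 551, 1991, 104 and 73.1 CPM in Krt9 cells of SAR131675, control diet, LNR and sham, against 9415, 11899, 8438 and 8739 CPM in Krt9-low cells (log2 fold change -4.35, SE 0.09). This difference depended on the comparison cells. In Krt1-rich Krt9-low cells Krt2 was at 588, 576, 355 and 319 CPM, the groups overlapped, and the log2 fold change was 0.01 (adjusted p = 0.99). In addition 42.9% of the Krt2 UMIs of the Krt9 cells came from 1 cell. Krt80, a keratin of differentiating epithelia, was called lower in both comparisons (-1.09 and -2.35). Krt24, named after its values were seen in this comparison, was at 2051, 2297, 2092 and 2533 CPM against 861, 1164, 814 and 822 CPM, a log2 fold change of 1.26 (SE 0.09).

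Of 11 tested genes of the basal layer, 1 was called higher and 3 lower. Krt14, the type I basal keratin, was at 575, 479, 456 and 1291 CPM in Krt9 cells against 351, 255, 418 and 442 CPM in Krt9-low cells, a log2 fold change of 0.83 (SE 0.12). Against Krt1-rich Krt9-low cells its sign turned and it was not called (-0.38). In sham the median Krt9 cell had Krt5 plus Krt14 at only 0.0343% of UMIs, so cells above the median carried the 1291 CPM. Keratinocytes with Krt5 plus Krt14 at least 2% of UMIs and little Krt1 or Krt10, for scale, had Krt14 at 14943 ± 84.6 CPM (SD, n = 4 libraries). The hemidesmosome genes Col17a1 (-1.44), Itga6 (-0.86) and Dst (-0.72), which anchor basal cells to the basement membrane, were called lower. For Col17a1 the sham library went the other way, with 227 CPM in its Krt9 cells and 141 in its Krt9-low cells.

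Of 8 tested keratins and other genes induced in wounded epidermis, 1 was called higher. No count of lower calls is given, since S100a9 and Fosl1 could pass the low-count filter through the Krt9-low cells alone. Krt17 was at 18.9, 12.0, 0 and 16.2 CPM in Krt9 cells against 109, 97.0, 293 and 308 CPM in Krt9-low cells, and the groups did not overlap. Its log2 fold change was -3.13 (SE 0.22), and -5.55 against Krt1-rich cells. Krt6a, named after its values were seen, gave -1.15 and was not called against Krt1-rich cells (-0.47). The neutrophil alarmin gene S100a9 had no UMI in Krt9 cells and was at least 4.82-fold lower, and Fosl1, an AP-1 factor, rested on 4 UMIs. Sprr1b was the gene called higher, at 0.59, and it was not called against Krt1-rich cells (0.46).

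Genes of the cornified envelope, the protein shell laid down by dying keratinocytes, were mostly lower than in all Krt9-low cells. Of 16 tested, 2 were called higher, with a list median log2 fold change of -0.65 against -0.03 for all genes tested. No count of lower calls is given, since Scel could pass the low-count filter through the Krt9-low cells alone. The rule limits granular genes in both classes, so this list lies close to it. The comparison cells mattered for some of these genes. Against Krt1-rich cells Dmkn (-0.66 and -0.20 in the first and second comparison) and Krtdap (-0.63 and -0.30) were not called. Tgm3 was called higher there (0.64), while Sprr1a (-4.07), Ivl (-2.58), Sbsn (-1.17) and Asprv1 (-1.10) were called lower. Scel, which encodes sciellin, a precursor of the envelope, was at 13.2, 12.0, 0 and 0 CPM in Krt9 cells against 223, 237, 44.6 and 47.6 CPM in Krt9-low cells (log2 fold change -4.19, SE 0.26). Sprr1a, a small proline-rich envelope protein gene, gave -3.48 (SE 0.33). The early differentiation gene Sbsn was at 596, 566, 653 and 950 CPM against 1772, 1929, 2291 and 2453 CPM, a log2 fold change of -1.66 (SE 0.10). Scel, Sprr1a and Sbsn were called lower in every alternative run for them. The genes called higher, named after their values were seen, were Tgm1, the crosslinking enzyme of the envelope, at 1.42 (SE 0.27), and the calmodulin-like gene Calml3, at 1.39 (SE 0.10). Tgm1 rested on 62 UMIs in 38 Krt9 cells, while Calml3 was found in all 116.

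Proteases of desquamation and their inhibitors moved in both directions. Of 13 tested, 4 were called higher. No count of lower calls is given, since Klk7 could pass the low-count filter through the Krt9-low cells alone. The kallikrein gene Klk13 was at 98.4, 73.6, 93.2 and 114 CPM in Krt9 cells against 11.6, 10.7, 9.63 and 8.29 CPM in Krt9-low cells, a log2 fold change of 3.08 (SE 0.19) and 3.01 against Krt1-rich cells. Klk7, which cleaves corneodesmosomes, was at 2.84, 4.5, 0 and 0 CPM against 87.2, 49.5, 63.2 and 54.2 CPM (-4.49, SE 0.37). Within a family of related enzymes, Klk13 was thus higher and Klk7 lower. Klk5, named after its values were seen, was also lower, at -1.94, and was called at -2.14 against Krt1-rich cells. The serpin genes split as well. Serpinb7, a protease inhibitor gene mutated in Nagashima-type palmoplantar keratosis, was higher by 2.02 (SE 0.18), and Serpinb2 was lower, at -2.36 (SE 0.20). Spink5, the kallikrein inhibitor gene mutated in Netherton syndrome and named after its values were seen, gave 1.38, and 0.41 against Krt1-rich cells, where it was not called.

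Other genes mutated in palmoplantar keratodermas were taken as a list because Krt9 is one of them. Of 21 tested, 5 were called higher and 4 lower, against 5.32% and 7.54% of all genes, and the list overlaps others here. Aqp5, a water channel known from sweat glands and from palm and sole epidermis, was at 35.0, 31.5, 72.5 and 97.4 CPM in Krt9 cells against 3.98, 5.36, 6.94 and 4.59 CPM in Krt9-low cells. Its log2 fold change was 3.17 (SE 0.29) and 3.62 against Krt1-rich cells, and it was found in 39 Krt9 cells. The other sweat gland markers tested, Krt7 and Epcam, were called lower, at -1.41 and -2.27. Gjb2, which encodes a gap junction connexin, was higher by 1.23 (SE 0.18), Ctsc, the cathepsin C gene, by 1.26, and the desmosomal cadherin gene Dsg1b by 0.66. Gjb2 was not called among cells with none of the granular genes (0.51). Krt17, Krt6a, Card14 and Fam83g were the genes called lower, and Card14 rested on 7 UMIs. Fam83g (-0.75) was not called against Krt1-rich cells (-0.43).

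Cell junction lists gave mixed calls. Of 13 desmosome genes tested, 2 were called higher (Dsc1 at 0.82, which turned to -0.04 among cells with none of the granular genes, and Dsg1b) and 2 lower (Dsg3 at -0.85 and Ppl at -0.69). Dsg1 and Dsc1 are the desmosomal cadherins of upper layers, and Dsg3 that of lower ones. Of 18 gap junction and channel genes, 3 were higher and 6 lower. Gja1, named after its values were seen, was higher by 1.03 (SE 0.12) and Orai1, the pore of store-operated calcium entry, lower, at -1.91 (SE 0.25). Of 17 barrier lipid genes tested, 1 was called higher and 5 lower. That one was Fabp5, the epidermal fatty acid binding protein, at 15469, 16325, 16655 and 17030 CPM in Krt9 cells against 4032, 3939, 4606 and 4550 CPM in Krt9-low cells. Fabp5 varied little between libraries, with a log2 fold change of 1.90 (SE 0.07) and 2.10 against Krt1-rich cells. Among cells with none of the granular genes the value was 1.26 and was not called. The genes called lower included Sptlc3 (-1.33) and Abca12 (-1.01), of sphingolipid synthesis and lipid transport into lamellar granules.

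Signaling lists followed no single direction. Of 19 Wnt and BMP genes tested, 5 were called higher. No count of lower calls is given, since Bmp2 and Nkd2 could pass the low-count filter through the Krt9-low cells alone. Beside Wnt5a, the receptor gene Fzd6 (1.19) and the BMP target genes Id2 (1.95) and Id3 (0.98), named after their values were seen, were higher. The ligand gene Wnt3 was lower, at -2.75 (SE 0.34). The ligand gene Bmp2 and the Wnt inhibitor Nkd2 were also called lower on 2 and 3 UMIs in Krt9 cells, and were 7.12-fold (counting interval 1.97 to 58.8) and 7.89-fold (2.70 to 38.3) lower. In the Notch list, 1 of 6 was called, the ligand gene Jag1, at 216, 207, 72.5 and 48.7 CPM against 57.5, 66.0, 37.1 and 38.3 CPM (log2 fold change 1.57, SE 0.16). Its LNR and sham levels are those of 7 and 6 UMIs. Against Krt1-rich cells Jag1 gave 1.11 and was called, but in sham those cells held 50.6 CPM, above the Krt9 cells. Of 5 EGF family genes tested, 1 was called higher, Nrg1 (1.62, on 28 UMIs), and Hbegf (-1.27) and Erbb3 (-0.86) were called lower. Igfbp2, the T-box genes Tbx3 and Tbx1, and Hif1a were also called higher, at 3.05, 3.05, 2.70 and 1.55, and were chosen after their values were seen. Igfbp2 was found in 110 Krt9 cells at 1560, 1081, 476 and 1128 CPM, against 175, 122, 102 and 93.8 CPM in Krt9-low cells.

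**Figure D3:**
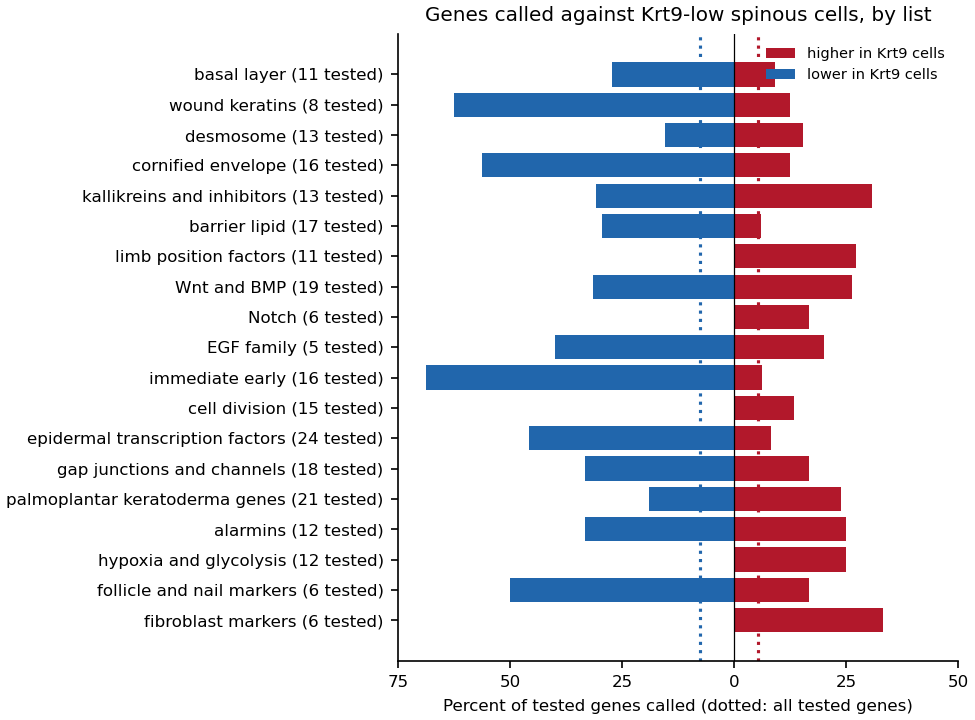
Percent of tested genes called higher (bars to the right) or lower (bars to the left) in Krt9 cells against Krt9-low spinous cells, for each list with at least 5 tested genes; dotted lines mark the shares over all tested genes, 5.32% and 7.54%. The longest bar is that of immediate early genes called lower. Bars of lower calls can include genes that passed the low-count filter through the Krt9-low cells alone, such as Fosl1 in that list.

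Immediate early genes had a median log2 fold change of -1.03 against all Krt9-low cells, and it was -0.03 for all genes tested. Of 16 immediate early genes, which respond within minutes to stress, growth factors and tissue handling, 1 was called higher. No count of lower calls is given, since Fosl1 could pass the low-count filter through the Krt9-low cells alone. Fos was at 79.4, 73.6, 31.1 and 130 CPM in Krt9 cells against 330, 379, 426 and 406 CPM in Krt9-low cells, and the groups did not overlap. Its log2 fold change was -2.24 (SE 0.15), and -1.14 against Krt1-rich cells, in which Fos was itself lower, at 126 to 327 CPM. Atf3 gave -2.78 and -1.10 in the same order, and Fosb -2.75 and -1.88. Against Krt1-rich cells 7 of 15 tested genes of the list were called lower and 1 higher, with a median of -0.60. For scale, 6.62% of all genes tested against Krt1-rich cells were called lower and 4.53% higher. Jun (-0.96 and -0.23), Junb (-0.90 and -0.40) and Zfp36 (-1.12 and -0.45), named after their values were seen, lost their calls there. Of 24 epidermal transcription factors tested, 2 were called higher. No count of lower calls is given, since genes such as Pou3f1 could pass the low-count filter through the Krt9-low cells alone. Barx2, a homeobox gene, was at 5.67, 15.0, 0 and 8.12 CPM against 158, 118, 69.0 and 81.3 CPM (log2 fold change -3.88, SE 0.27). Pou3f1 had 1 UMI in all Krt9 cells, which was 125-fold lower than in Krt9-low cells, with a counting interval from 22.5 to 4951. Its relative Pou2f3 (-2.07) and the ETS factor gene Ehf (-2.21) were also lower. The genes called higher, Tfap2b (1.05) and Tfap2c (0.82), belong to the AP-2 family.

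Defense genes included the largest split. Of 12 alarmin genes tested, 3 were called higher. No count of lower calls is given, since S100a9 could pass the low-count filter through the Krt9-low cells alone. The beta-defensin gene Defb3 was at 68.1, 6.01, 10.4 and 56.8 CPM in Krt9 cells and below 1 CPM in Krt9-low cells of every library, a log2 fold change of 5.92 (SE 0.36) on 84 UMIs in 30 cells. Most of these UMIs lay in SAR131675, and the 10.4 CPM of LNR is the level of 1 UMI. Defb6 was at 5.67, 1.5, 0 and 0 CPM against 101, 60.7, 244 and 131 CPM (-4.77, SE 0.32). Of 12 genes of glycolysis and the hypoxia response, 3 were called higher and 0 lower, all under 2-fold: Pgk1 (0.79), Ldha (0.76) and the glucose transporter gene Slc2a1 (0.75). Slc2a1 was not called against Krt1-rich cells (0.49, adjusted p = 0.17). In the cell division list 13 of 15 tested genes were not called, and the calls for Mki67 (0.67) and Stmn1 (0.62) did not hold: both turned sign under at least 1 alternative.

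Markers of other structures and cell types were few. Among 6 tested follicle and nail markers, Krt79 (-2.89), Spink12 (-4.29, on 9 UMIs) and Lrig1 were called lower, the last on 2 UMIs and 12.1-fold lower (counting interval 3.36 to 100.2). Krt25 was called higher (2.01), with 57.9% of its UMIs in 1 cell. Col1a1 and Lum were called higher among 6 fibroblast markers, at 1.07 and 1.26, with 50% and 71.4% of their UMIs in 1 cell and lower values in Krt9 cells of 3 of 4 libraries. Of 2 immune markers tested, Cd74 was called lower (-2.75), and of 4 Langerhans markers, H2-Aa (-2.21). H2-Eb1, with no UMI in Krt9 cells and at least 4.53-fold lower, could pass the low-count filter through the Krt9-low cells alone. The hemoglobin genes Hbb-bs and Hbb-bt were called in opposite directions, at -0.92 and 1.36, with 95.8% and 98.0% of the Krt9 cells' UMIs for them in 1 sham cell. No endothelial, Schwann or smooth muscle marker was called among the 1, 1 and 3 tested, and no melanocyte or osteoblast marker passed the count filter. The median log2 fold change of the 3 smooth muscle markers was -0.84.

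Levels across the other classes of each library, given as mean ± SD over 4 libraries with no test, placed the Krt9 cells beside the Krt9 granular cells. En1 was at 171 ± 55.0 CPM in Krt9 cells, 232 ± 96.8 in Krt9 granular cells, 47.3 ± 9.10 in Krt5- and Krt14-rich keratinocytes and 24.8 ± 4.20 in Krt9-low granular cells. Wnt5a was at 57.4 ± 21.6 CPM in Krt9 cells and 85.8 ± 41.1 in Krt9 granular cells. It was below 10 CPM in the other keratinocyte classes, but reached 44.4 ± 5.59 in the remaining cells. Hhip showed another order. It was at 238 ± 223 CPM in Krt9 cells, 31.4 ± 41.9 in Krt9 granular cells and 17.2 ± 5.53 in the remaining cells, and below 2 CPM in Krt9-low spinous, Krt9-low granular and other keratinocytes. In LNR and sham, where 2 cells and 1 cell were Krt9 granular, no Hhip UMI was found in that class. Fabp5 was highest in Krt9 granular cells, at 24462 ± 8580 CPM, and stood at 4279 ± 445 in Krt9-low granular cells. The En1 and Wnt5a values of the Krt9 and Krt9 granular classes overlapped. Every Fabp5 value of the Krt9 granular class, 17247 to 35892 CPM, lay above every value of the Krt9 cells.

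**Figure D4:**
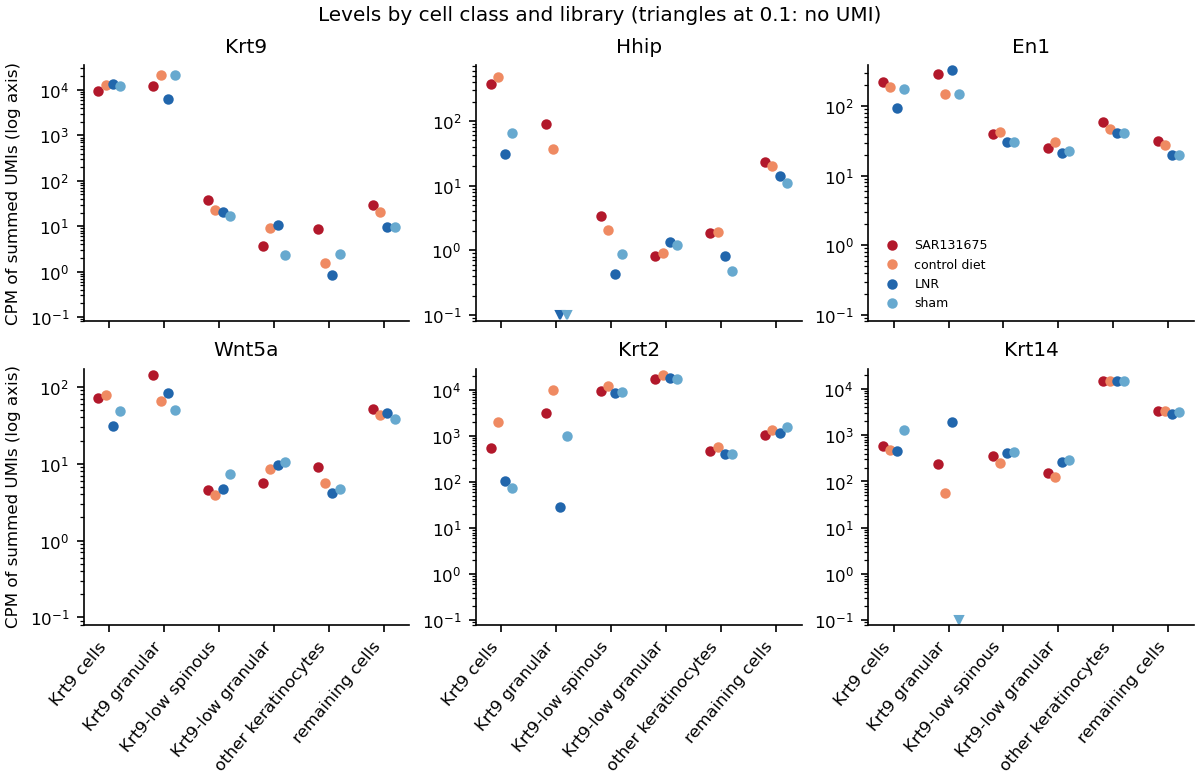
Levels of Krt9, Hhip, En1, Wnt5a, Krt2 and Krt14 in 6 classes of cells, in CPM of summed UMIs on a log axis, 1 point per library, with triangles at 0.1 for no UMI. En1 and Wnt5a are high in both Krt9 classes, Hhip is highest in the Krt9 cells below the granular limit, and Krt14 is highest in other keratinocytes (14943 CPM), a class chosen by Krt5 plus Krt14.

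Within the Krt9 cells, only the SAR131675 library had enough cells to be split by Krt9 level. Its 39 cells with Krt9 at 0.5% to 1% of UMIs had Krt1 at 21537 CPM, Krt10 at 6293, Hhip at 274 and En1 at 232. Its 23 cells with Krt9 at 1% to 2% had Krt1 at 32492, Krt10 at 10711, Hhip at 496 and En1 at 211. Krt1, Krt10 and Hhip were higher in the cells with more Krt9 while En1 was not, as a description of 1 library without a test. Median UMIs per cell were 19675 and 17819 in the lower and upper range.

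The treatments were compared by ratios of summed CPM with exact intervals for counting error, since 1 library per condition allows no test. The 10 genes of the rule were left out of the counts that follow. Among 2993 genes with at least 100 UMIs in the Krt9 cells of the diet experiment, 77 were more than 1.5-fold higher in SAR131675 (2.57%) and 118 more than 1.5-fold lower (3.94%). The balance turned among cells with Krt9 at least 1%, where 72 were higher and 48 lower. Among 248 such genes in the surgical experiment, 4 were past 1.5-fold higher in LNR (1.61%) and 21 lower (8.47%). Of the 21, 4 were the hemoglobin genes Hba-a1, Hba-a2, Hbb-bs and Hbb-bt, for each of which 95.3% to 98.0% of the Krt9 cells' UMIs lay in 1 sham cell. With cells thinned to 3000 UMIs, only 89 genes reached 100 UMIs, and 10 of them were higher and 4 lower. Of the 243 genes in both sets, 123 had the same sign in both. Both intervals lay off 0 in the same direction for 31 higher genes and 5 lower ones, and in opposite directions for 20. Of the rule genes left out, Slurp1 had log2 ratios of -1.37 and -3.18 and Krt1 of -0.08 and -0.34, given as a description.

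Outside the rule genes, the largest difference shared by SAR131675 and LNR was that of Wfdc17, which encodes a small secreted protein known from macrophages. It was at 198 CPM in SAR131675 against 598 in control diet (log2 ratio -1.60, interval -1.84 to -1.35) and at 186 CPM in LNR against 1421 in sham (-2.93, interval -3.72 to -2.23). Single cells carried much of the control values, with 146 of 398 UMIs in 1 control diet cell and 93 of 175 in 1 sham cell. Without the highest cell of each library the ratios were -1.31 and -2.38. The other shared lower genes outside the rule were Pkp1, a desmosomal plaque gene (-0.41 in both), Dsc1 (-0.35 and -0.82), the peroxiredoxin gene Prdx5 (-0.26 and -1.16) and Krt24 (-0.16 and -0.28). Without the highest cells the interval took in 0 for Dsc1 and Krt24 in the surgical experiment and for Prdx5 in the diet experiment. The 5 largest shared higher values were those of Btf3 (0.27 and 0.42), a transcription and chaperone factor gene, and the ribosomal protein genes Rpl37, Rps12, Rps21 and Rpl34, all under 1.5-fold. These directions did not hold among cells with Krt9 at least 1%. There Rpl37 (-0.06), Rps12 (-0.14) and Rpl34 (-0.12) turned sign in SAR131675, and Btf3 (-0.04), Rps21 (-0.01) and Rpl34 (-0.03) in LNR. Dsc1 turned to 0.34 in SAR131675, and Krt24 to 0.44 in SAR131675 and 0.29 in LNR. Of 80 ribosomal protein genes plotted, 75 were higher in LNR, 65 in SAR131675 and 60 in both. Their median log2 ratio in LNR was 0.30, against -0.11 for the other genes, while in SAR131675 the medians were 0.08 and 0.09.

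**Figure D5:**
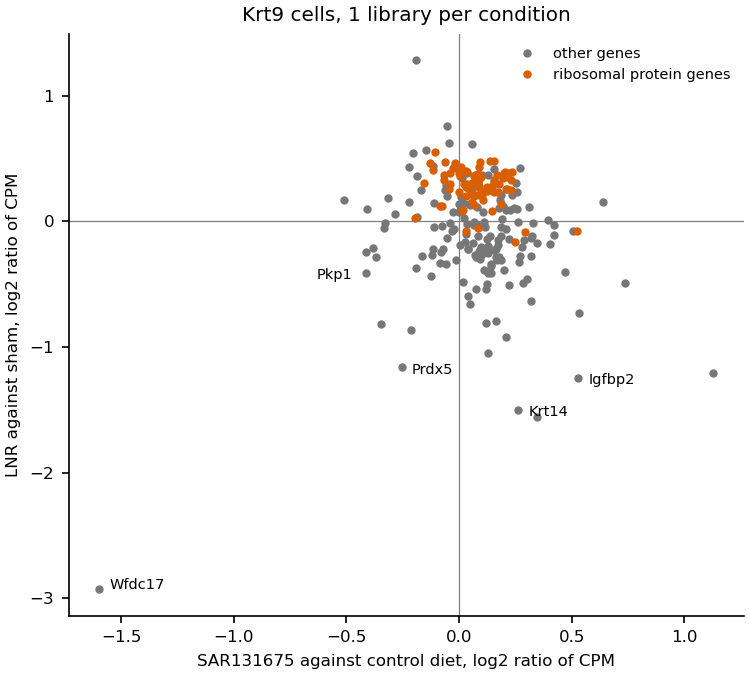
Log2 ratio of CPM in Krt9 cells for SAR131675 against control diet (x axis) and for LNR against sham (y axis), for 243 genes that reached 100 UMIs in both experiments; orange points are 80 ribosomal protein genes. Wfdc17 lies lowest on both axes among the named genes, Igfbp2 and Krt14 lie right of 0 and below 0, and most orange points lie above 0 on the y axis.

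Genes higher in Krt9 cells gave ratios of both signs in the treatments. Hhip was lower in SAR131675 than in control diet (log2 ratio -0.33, interval -0.55 to -0.11), and gave -1.06 (-3.61 to 1.00) for LNR against sham on 3 and 8 UMIs. Wnt5a gave -0.12 and -0.65, Tbx3 -0.32 and -0.23, and Fabp5 -0.08 and -0.03 in the same order. These had the same sign in both experiments, and among them only Fabp5 in the diet experiment had an interval off 0 (-0.11 to -0.04). En1 gave 0.23 (-0.09 to 0.56) and -0.94 (-2.24 to 0.24). Neither interval of En1 was off 0. Igfbp2 gave 0.53 (0.40 to 0.66) in the diet experiment and -1.24 (-1.76 to -0.75) in the surgical one, and Krt14 0.26 (0.07 to 0.46) and -1.50 (-2.02 to -1.01). In Krt9-low cells the same ratios were 0.51 and 0.12 for Igfbp2 and 0.46 and -0.08 for Krt14, so the diet ratios had the same sign in both classes. For Hhip the Krt9-low cells gave 0.75 in the diet experiment, opposite in sign to the Krt9 cells. Krt2 was lower in SAR131675 (-1.85, interval -1.995 to -1.71), where 1 control diet cell held 828 of the 1326 Krt2 UMIs of that library's Krt9 cells. Igfbp2 and Krt14 were thus on opposite sides of 0 in the 2 experiments, with only 5 and 9 cells behind the surgical values. The sham level of Krt14 was uneven over its cells, and no ratio without the highest cell was run for Krt14. Krt9, a rule gene, was at 9600 CPM in SAR131675 and 12604 in control diet (log2 ratio -0.39). In Krt9-low cells its diet ratio was 0.68, so the signs in both classes were those of Hhip. Cells with Krt9 at 0.5% to 1% of UMIs were 39 of the 68 in SAR131675 and 11 of the 34 in control diet. A link between the Hhip and Krt9 ratios was not tested.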

How the data were processed

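Single-cell suspensions of pooled P3 digits had been sequenced with 10x 3' chemistry. The deposited values are unnormalized counts of UMIs for each gene in each cell barcode of 4 libraries. Per the file headers these were made with Cell Ranger 6.1.2 for the LNR and sham libraries and Cell Ranger 8.0.1 for the diet libraries, while the submitters' processing notes name 6.1.2 and genome build GRCm39. Totals ranged from 168507188 to 585284877 UMIs per library over 33696 genes. No coordinates are given. Cells were kept with 200 to 5500 genes, at most 30000 UMIs and at most 10% mitochondrial UMIs; doublets were not called or removed.

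UMIs were summed per library and class. Classes were compared with edgeR 4.0.16 (quasi-likelihood test, TMM scaling, filterByExpr, library as block), with DESeq2 1.42.0 as an alternative, in R 4.3.3. The edgeR step was tested on simulated counts. Treatments were compared as log2 ratios of CPM with exact conditional 95% intervals, and shares with exact Clopper-Pearson intervals, in Python 3.11.15 with scipy 1.17.1. UMIs of 1 library do not replicate a condition, so intervals cover counting error only. Alternatives changed scaling, filters, libraries, the comparison cells, the limits of the rule and the depth per cell.

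The cells, the 29 gene lists and the tests were chosen with earlier results of these data known. Genes named by rule were the 10 largest called differences in each direction with 4 of 4 libraries in agreement and at least 200 UMIs, up to 4 genes of each list by size of log2 fold change, the 5 largest differences in each direction shared by both treatments, and the 10 genes of the cell rule. The comparison with Krt1-rich Krt9-low cells, with Krt9-low cells free of nail and infundibulum UMIs, and the ratios without the highest cell were added after seeing the data.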

Additional observations from a re-analysis of the deposited data

Results flagged for a closer look

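Cells with Krt9 lay outside the comparisons in 2 sets. Within the limits on cells, 65 cells had Krt9 at or above 0.5% of UMIs but Krt1 plus Krt10 under 2%. Their summed UMIs gave Hhip at 223 CPM (203 UMIs), En1 at 201, Krt1 at 13038, Krt10 at 1784 and Krt14 at 2144 CPM. They were spread over the SAR131675, control diet, LNR and sham libraries as 34, 18, 7 and 6. Another 33 barcodes met the composition rule but lay outside the limits on genes, UMIs or mitochondrial share, 23 of them in SAR131675. They had Hhip at 192 CPM, En1 at 212, Wnt5a at 70.5, Fabp5 at 20206 and Krt1 at 26733 CPM. Krt9-low cells, for comparison, had Hhip at 1.71 ± 1.35 and En1 at 35.4 ± 6.04 CPM (SD, n = 4 libraries).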

How the results depend on the processing

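Of 90 genes named by rule and called in the class comparison, 22 were called with the same direction in every alternative run for them. Among the 22 were Hhip, En1, Klk13, Serpinb7, Aqp5, Scel, Klk7, Krt17, Barx2 and Fos. Of the 90, 80 never changed sign. The number of genes called, 1325, lay between 918 and 1585 under the settings run for it other than those given next by name. It fell to 572 with DESeq2, 308 with no replicate block (library left out as a term), 420 among cells with none of the granular genes, 327 with cells thinned to 3000 UMIs and 146 with the LNR and sham libraries only. Leaving out 1 library gave 578 to 1389 calls, the low values being 578 without SAR131675 and 650 without control diet, which hold most of the cells. The replicate numbers of the labels are 1 in every group and pair nothing; the block was the library.

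Against Krt1-rich Krt9-low cells, 66 of the 90 genes were tested, 58 kept their call, 6 lost it, and Krt2 (0.0097) and Krt14 (-0.38) changed sign. Genes named after their values were seen are outside these counts. Among those, Krt6a, Spink5, Jun, Junb and Zfp36 also lost their calls there. Dsc1 turned to -0.043 among cells with none of the granular genes, Card14 to 1.08 with the LNR and sham libraries only, and Mki67 to -0.12 with thinned cells. Stmn1 turned to -0.26 with DESeq2, -0.79 without sham, -0.70 in the diet libraries only and -0.39 among cells with none of the granular genes. Col1a1 turned to -0.56 with DESeq2, -1.53 without SAR131675, -3.02 with LNR and sham only, -0.12 with no replicate block and -0.50 with none of the granular genes. Lum turned to -0.97, -3.07, -9.68 and -0.46 under the first 4 of these. Hbb-bs turned to 0.84 without SAR131675, 0.58 without control diet, 4.38 with LNR and sham only and 3.83 with no replicate block. Hbb-bt turned to -1.66 with DESeq2, -3.99 without sham, -4.03 in the diet libraries only, -3.80 with Krt9 at least 1% and -3.33 with none of the granular genes. With 1 library left out at a time the other end of the range was 1.34 for Stmn1 (without SAR131675), 1.32 for Col1a1 (without control diet), 1.62 for Lum and -3.55 for Hbb-bs (both without sham) and 3.02 for Hbb-bt (without SAR131675). For these genes the cause was not tested.

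The log2 ratio of shares for SAR131675 was 0.059 with Krt9 at least 1%, 0.54 with fewer than 2 granular genes and 0.49 with thinned cells, with intervals that took in 0; for LNR it was 0.062 with thinned cells. Genes past 1.5-fold numbered 195 in SAR131675 and 25 in LNR. With 50 UMIs in the pair they were 562 and 57. With thinned cells they were 18 of 311 genes (8 higher, 10 lower) and 14 of 89 (10 higher, 4 lower), and with Krt9 at least 1% 120 of 1578 (72 higher, 48 lower) and 9 of 150 (1 higher, 8 lower). They were 323 in SAR131675 with no upper limits on cells and 14 in LNR without cells with other-type markers. With Krt9 at least 1%, SAR131675 ratios turned to -0.064 for Rpl37, -0.14 for Rps12, -0.12 for Rpl34, 0.34 for Dsc1 and 0.44 for Krt24, and LNR ratios to -0.041 for Btf3, -0.014 for Rps21, -0.030 for Rpl34 and 0.29 for Krt24. With thinned cells, Dsc1 turned to 0.33 and Krt24 to 0.23 in SAR131675. The 5 and 9 Krt9 cells of LNR and sham held 96548 and 123192 UMIs in all, against 1057430 and 666085 in SAR131675 and control diet, which widens the intervals of the surgical ratios. Median UMIs per Krt9 cell were 20796 and 12436 against 17422.5 and 21081.5.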
